A study of Mus musculus with 6 samples.

Results

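The excitatory neurogenesis cascade of the pallium was described here by 10 genes: Neurog1, Neurog2, Eomes, Insm1, Nhlh1, Neurod1, Neurod2, Neurod4, Neurod6 and Tbr1. They were taken by gene name from the 55471 genes of the RNA-seq count tables, and all 10 were found and tested. The tissue was the rostral-most telencephalic primordium of mouse embryos at E11.5. The control group had 3 libraries from Dicer F/F embryos without Cre (the floxed allele is Dicer1tm1Bdh, and the genotype label of these libraries reads WT). The Rx-Dicer group had 3 libraries from RxCre-Dicer F/F embryos, which carried the same floxed alleles and, in addition, Cre recombinase driven by regulatory sequences of Rax (Rx). Floxed mice were kept on C57BL/6 and Cre mice on CD1, and how the embryos' background was mixed is not given in the labels. Dicer cuts precursor hairpins into mature miRNAs. At this stage Rx-Cre is known from the study to act most in the rostral and ventral telencephalon and less in the neocortex, so Rx-Dicer tissue could hold cells that kept Dicer. The labels do not say how many embryos went into a library, and p-values then measure the spread between these libraries.

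In the pallium, the dorsal part of the telencephalon, glutamatergic neurons arise through a sequence of transcription factors. Neurogenins are proneural basic helix-loop-helix (bHLH) proteins that commit radial glial progenitors to a neuronal fate and bind DNA as dimers with E proteins. Committed cells then pass through an intermediate progenitor state marked by Eomes (Tbr2) and Insm1, express NeuroD and Nhlh factors as they differentiate, and switch on Tbr1 as postmitotic neurons. Neurons formed in the ventral telencephalon are mostly GABAergic.

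The 6 libraries held 34471501 to 48373468 counts on genes, with overlapping ranges between the genotypes. Dicer1 had 6355, 7070 and 6270 normalized counts (raw counts divided by a size factor per library) in controls, against 4777, 7002 and 4644 in Rx-Dicer libraries, so that the log2 fold change was -0.26 ± 0.17 (SE, n = 3 each, DESeq2 adjusted p 0.567). This total includes exons outside the deleted segment and checks the labels only in part, and the library labelled Rx-Dicer 2 was at the level of the controls. The tissue label was checked with 12 pallial progenitor genes, all of which were tested, and their summed level was 65980 to 84122 normalized counts in controls and 63300 to 82953 in Rx-Dicer libraries. The library labelled control 3 and the library labelled Rx-Dicer 2 stood apart from the other four in Emx1 and in the summed level of ventral genes. Emx1, a pallial progenitor factor, had 4764, 5286 and 2156 normalized counts in the control libraries and 4291, 921 and 3615 in the Rx-Dicer libraries. The summed counts of 12 subpallial neurogenesis genes (Gsx, Dlx and related genes) were 14788 in the library labelled control 3 and 21924 in the library labelled Rx-Dicer 2, against 6232 to 7579 in the others. A pallial minus subpallial score, the mean log2 level of the 12 pallial progenitor genes minus that of these 12 genes, was 2.80 and 1.76 in these 2 libraries and 3.91 to 4.82 in the others. Nkx2-1, a ventral patterning factor, split the libraries by genotype. Within each genotype it was highest in the library labelled control 3 and the library labelled Rx-Dicer 2. It had 3.66, 51.9 and 192 normalized counts in the control libraries and 682, 1882 and 1307 in the Rx-Dicer libraries, without overlap, and was not called (log2 fold change 3.97 ± 1.26, DESeq2 adjusted p 0.0549, edgeR 0.171). Since control 3 and Rx-Dicer 2 stood apart, calls are also given without them.

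All 10 genes had a lower fitted level in Rx-Dicer than in control libraries, and Eomes, Insm1 and Neurod4 passed the test. A gene was called where the DESeq2 adjusted p was under 0.05 and the fitted change exceeded 0.32 on the log2 scale. Of the 10 genes 3 were called lower and 0 higher. Among all 17127 tested genes 2.93% were called (502 genes), 1.18% lower and 1.75% higher. The median log2 fold change of the 10 genes was -0.57, and that of all tested genes -0.00090. A fitted change below 0 was found for 50.1% of tested genes. The 3 called genes were also the 3 whose Rx-Dicer values all lay below every control value, as did 10.7% of tested genes, and 8.55% lay all above. An unadjusted p under 0.05 was given to 5 of the 10 genes by DESeq2, against 6.11% of tested genes with such a p and a lower level. With edgeR's quasi-likelihood test 4 of the 10 had an unadjusted p under 0.05, against 5.84% of 17954 genes lower at that p. None of the 10 passed after adjustment with edgeR, which called 0.0446% of genes (8 genes) and 0% lower. In bulk tissue, fewer cells of a type and less RNA per cell cannot be told apart.

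**Figure D1:**
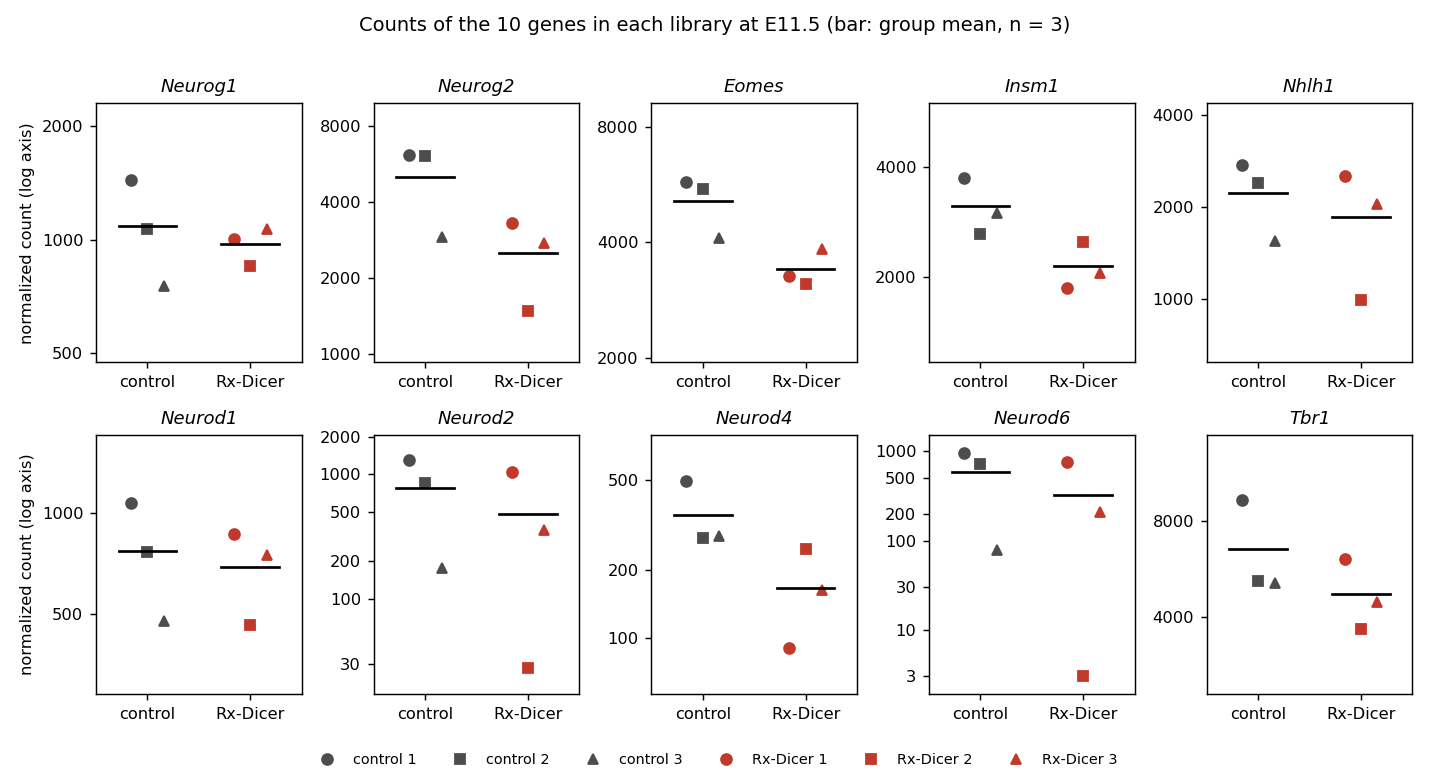
Normalized counts (vertical log axes, each with its own range) of the 10 genes in 3 control libraries (dark) and 3 Rx-Dicer libraries (red), with marker shape giving the replicate number and bars the group means. The groups do not overlap for Eomes, Insm1 and Neurod4, and the library labelled Rx-Dicer 2 is lowest by far for Neurod2 and Neurod6.

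Spread within a genotype was wide. The SD of log2 counts among controls was above the median of all tested genes (0.158) for all 10 genes and ranged from 0.26 for Insm1 to 1.97 for Neurod6. The library labelled control 3 was the lowest control and the library labelled Rx-Dicer 2 the lowest Rx-Dicer library for the same 8 genes. The exceptions were Insm1 and Neurod4, for which the library labelled Rx-Dicer 2 was the highest of its genotype. Control 1 was the highest control for all 10 genes. Without control 3 and the library labelled Rx-Dicer 2, 4 genes were called lower (Neurog2, Eomes, Insm1 and Neurod4), with 2 libraries left per genotype, an alternative chosen after seeing the data. Among all genes that fit called 369, of which 75 were lower, and the share of tested genes was not taken.

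**Figure D2:**
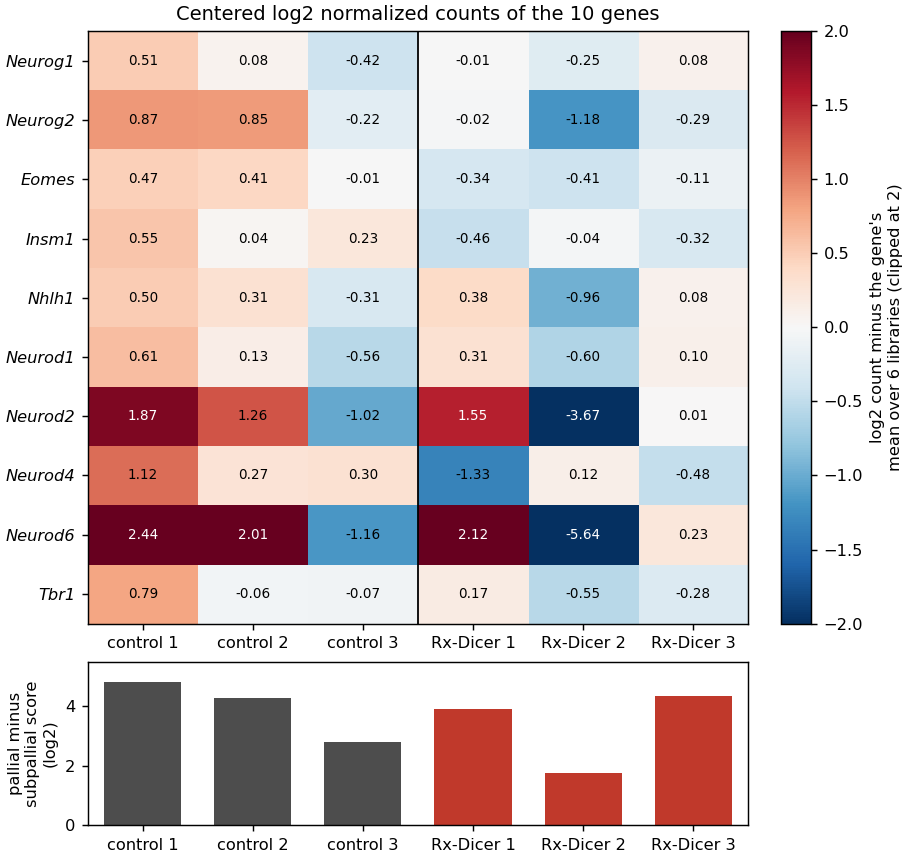
Centered log2 normalized counts of the 10 genes (rows) in the 6 libraries (columns), with colors clipped at 2, above bars of the pallial minus subpallial score of each library (log2). The library labelled control 3 and the library labelled Rx-Dicer 2 have the lowest scores, 2.80 and 1.76, and the lowest Neurod2 and Neurod6 values of their genotypes.

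The proneural factors came first. Neurog2 (ENSMUSG00000027967, GRCm38 chr3:127633135-127635631, plus strand), the main neurogenin of the dorsal cortex, had 6177, 6080 and 2903 normalized counts in controls, against 3323, 1485 and 2752 in Rx-Dicer libraries. The library labelled control 3 lay between the Rx-Dicer values, and the other controls were above all of them. The log2 fold change was -1.004 ± 0.47 (SE), the 95% interval was -1.93 to -0.08 without adjustment for the number of genes, and the DESeq2 adjusted p was 0.308. Neurog2 was called in 3 of 20 alternatives: without control replicate 3 (log2 fold change -1.28, adjusted p 0.00122), without that library and Rx-Dicer 2 (-1.01, adjusted p 3.45e-08), and with the pallial minus subpallial score as a covariate (-0.70, adjusted p 0.00299). This score holds Pax6, Nkx2-1 and Lhx6, whose control and Rx-Dicer values did not overlap, so it was not independent of genotype. Over the 20 alternatives the adjusted p of Neurog2 went from 3.45e-08 to 0.745.

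Neurog1 (ENSMUSG00000048904, chr13:56250478-56252163, minus strand), the second neurogenin of the pallium, had 1441, 1065 and 756 normalized counts in the control libraries and 1007, 852 and 1069 in the Rx-Dicer libraries. The Rx-Dicer values all lay within the control range. Its log2 fold change was -0.15 ± 0.21 (95% interval -0.57 to 0.27, DESeq2 adjusted p 0.884), and it was called in no alternative.

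To compare genes within a library, where scaling between libraries cancels, log2 ratios to Neurog2 were taken for 4 genes. The Neurog1/Neurog2 ratio was -2.10, -2.51 and -1.94 in controls, against -1.72, -0.80 and -1.36 in Rx-Dicer libraries. Every Rx-Dicer library was thus higher than every control. Means were -2.18 ± 0.30 and -1.30 ± 0.46 (SD, n = 3), a difference of 0.89 on the log2 scale with a two-sided exact permutation p of 0.1, or 0.2 adjusted over the 4 ratios. This is the smallest p that 3 against 3 libraries can give. Neurod1/Neurog2 was -2.53, -2.99 and -2.61 in the control libraries and -1.94, -1.69 and -1.88 in the Rx-Dicer libraries, again without overlap, with a difference of 0.88 and the same exact p of 0.1, adjusted 0.2. For Eomes/Neurog2 the difference was 0.42 (exact permutation p 0.3, adjusted 0.3) and for Tbr1/Neurog2 0.57 (exact permutation p 0.2, adjusted 0.267), both with overlapping groups. All 4 ratios use the same Neurog2 values and are not independent.

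**Figure D3:**
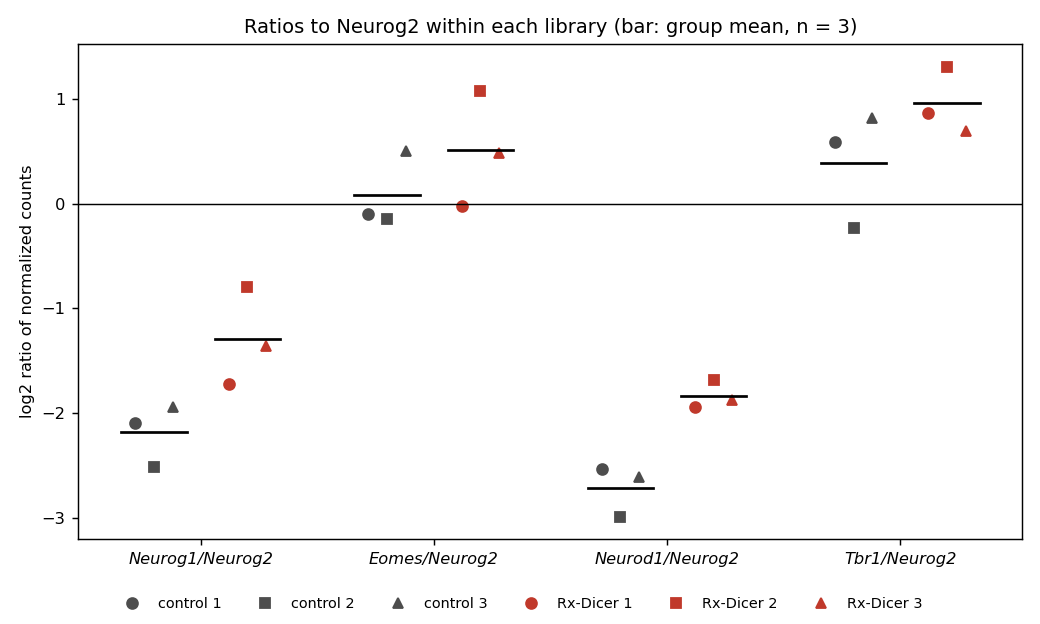
Log2 ratios of normalized counts of Neurog1, Eomes, Neurod1 and Tbr1 to Neurog2 in each library (control dark, Rx-Dicer red, bars are group means). Control and Rx-Dicer libraries do not overlap for Neurog1/Neurog2 and Neurod1/Neurog2, and overlap for Eomes/Neurog2 and Tbr1/Neurog2.

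The 2 genes of the intermediate progenitor state both fell. Eomes (ENSMUSG00000032446, chr9:118478212-118486132, plus strand), the T-box factor that defines these cells, had 5752, 5499 and 4111 normalized counts in controls, against 3273, 3120 and 3835 in Rx-Dicer libraries. Means were 5120 ± 884 and 3409 ± 377 (SD, n = 3 each), so the level was 33.4% lower. The library labelled control 3 was close to the highest Rx-Dicer library, and the groups did not overlap. Its log2 fold change of -0.59 ± 0.16 (SE) had an adjusted p of 0.0137 with DESeq2 and 0.185 with edgeR. Eomes kept its call in 13 of 20 alternatives, with adjusted p from 0.000104 to 0.185. The call was lost when any of control 1 (adjusted p 0.0957), control 2 (0.167), Rx-Dicer 1 (0.0635) or the library labelled Rx-Dicer 2 (0.0812) was left out, with log2 fold changes from -0.56 to -0.50.

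Insm1 (ENSMUSG00000068154, chr2:146221921-146225020, plus strand), a zinc-finger factor that promotes the formation of basal progenitors, had 3749, 2632 and 3009 normalized counts in the control libraries and 1871, 2492 and 2060 in the Rx-Dicer libraries. Control 2 and the library labelled Rx-Dicer 2 were next to each other, and the groups did not overlap. The level was 31.6% lower, or -0.55 ± 0.17 (SE) on the log2 scale, and the adjusted p was 0.0418 with DESeq2 and 0.230 with edgeR. It was called in 9 of 20 alternatives (adjusted p from 0.0101 to 0.230). The call was lost without control 1 (adjusted p 0.197), control 3 (0.130), Rx-Dicer 1 (0.160) or Rx-Dicer 3 (0.182).

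Among the bHLH factors of differentiating neurons Neurod4 was called, and it had the lowest level per length (FPKM) of the 10 genes. Neurod4 (ENSMUSG00000048015, chr10:130268152-130280240, minus strand) had 498, 277 and 283 normalized counts in controls, against 91, 249 and 164 in Rx-Dicer libraries. Control 1 was far above the other libraries and Rx-Dicer 1 was the lowest. The level was 52.4% lower, or -1.07 ± 0.34 (SE) on the log2 scale, and the adjusted p was 0.0498 with DESeq2 and 0.305 with edgeR. The call stood at the threshold and held in 6 of 20 alternatives (adjusted p from 0.00498 to 0.388). Of the fits that left out 1 library, the fit without the library labelled Rx-Dicer 2 kept it (log2 fold change -1.46, adjusted p 0.00545) and the other five lost it, with adjusted p from 0.114 without control 3 to 0.388 without control 1.

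Nhlh1 (ENSMUSG00000051251, chr1:172052292-172057573, minus strand), a bHLH factor of newly born neurons, had 2741, 2402 and 1556 normalized counts in the control libraries and 2521, 992 and 2046 in the Rx-Dicer libraries. Only the library labelled Rx-Dicer 2 lay below the controls. The log2 fold change was -0.27 ± 0.45 (95% interval -1.15 to 0.61, DESeq2 adjusted p 0.915). Neurod1 (ENSMUSG00000034701, chr2:79452521-79456751, minus strand), which follows the neurogenins in many neuronal lineages, had 1068, 763 and 474 normalized counts in controls, against 863, 462 and 749 in Rx-Dicer libraries. The ranges overlapped for most of their length, with a log2 fold change of -0.15 ± 0.28 (95% interval -0.70 to 0.40, DESeq2 adjusted p 0.928). In the annotation 201 of the 2729 exonic bases of Neurod1 (7.37%) are shared on the same strand with Cerkl, and reads there are not assigned to a gene. Cerkl itself had 12 to 32 normalized counts.

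Neurod2 and Neurod6, factors of maturing pyramidal neurons, differed more within each genotype than between them. Neurod2 (ENSMUSG00000038255, chr11:98325415-98329648, minus strand) had 1300, 854 and 176 normalized counts in the control libraries and 1042, 28 and 357 in the Rx-Dicer libraries. Its log2 fold change was -0.71 ± 1.32 (95% interval -3.30 to 1.88, DESeq2 adjusted p 0.929). Neurod6 (ENSMUSG00000037984, chr6:55677822-55681263, minus strand) had 966, 716 and 79 normalized counts in controls, against 770, 3 and 207 in Rx-Dicer libraries. The value of 3 in the library labelled Rx-Dicer 2 rests on 3 reads, the floor set here for detection. The fitted change was -0.84 ± 1.66 on the log2 scale (95% interval -4.10 to 2.41, DESeq2 adjusted p 0.937). For both genes the order of libraries was the same, with control 1, Rx-Dicer 1 and control 2 highest. Changes of severalfold in either direction were not detectable with this spread.

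Tbr1 (ENSMUSG00000035033, chr2:61802930-61814114, plus strand), the T-box factor of early postmitotic glutamatergic neurons, had 9278, 5175 and 5116 normalized counts in the control libraries and 6063, 3680 and 4443 in the Rx-Dicer libraries. Control 1 was highest, Rx-Dicer 1 lay above the other controls, and the remaining Rx-Dicer libraries lay below all controls. The log2 fold change was -0.46 ± 0.24 (SE), with an unadjusted DESeq2 p of 0.0486 and an adjusted p of 0.376. It was called in no alternative, with adjusted p from 0.0664 to 0.890.

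**Figure D4:**
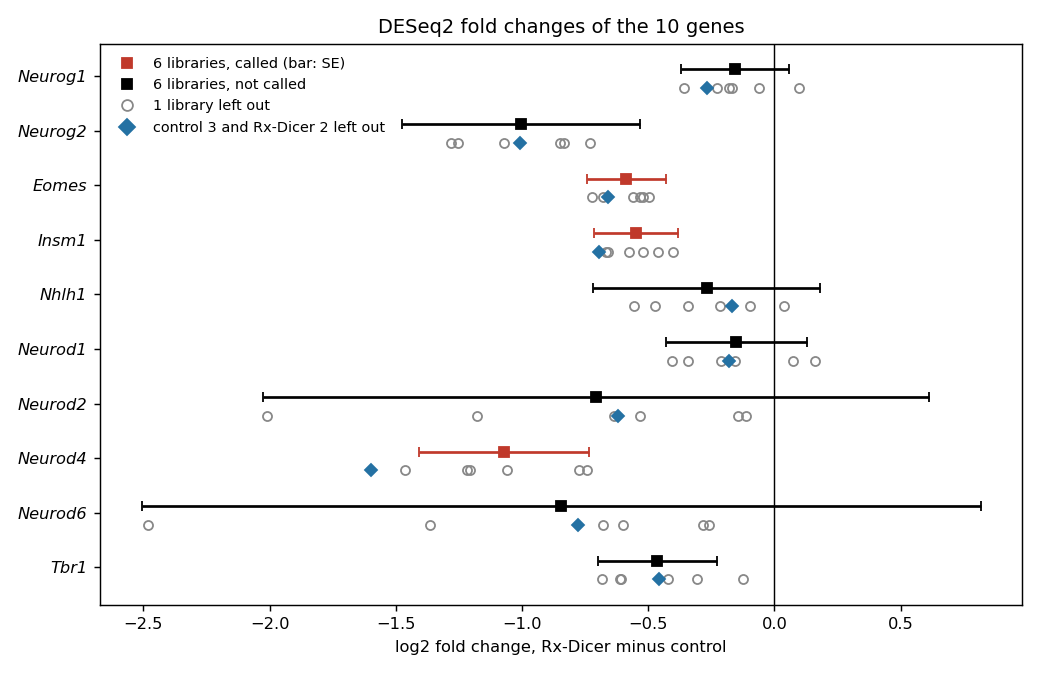
DESeq2 log2 fold changes (Rx-Dicer minus control, squares with SE bars, red where called) of the 10 genes, with open circles for fits that left out 1 library and blue diamonds for the fit without control 3 and Rx-Dicer 2. Neurog2, Eomes, Insm1, Neurod2, Neurod4, Neurod6 and Tbr1 stay below 0 in each of these fits, while Neurog1, Nhlh1 and Neurod1 cross it.

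Levels of different genes were compared per length, as FPKM (counts divided by exon length in kilobases and by the library's total on genes, computed here). Neurog2 was highest in controls at 53.3 ± 19.3 FPKM (SD, n = 3), followed by Eomes (29.0 FPKM), Tbr1 (28.1), Insm1 (23.8), Nhlh1 (21.3), Neurog1 (15.2), Neurod1 (6.63), Neurod6 (6.41), Neurod2 (5.81) and Neurod4 (2.49 ± 0.91). Of neighbors in this order, Neurog1 and Neurod1 did not overlap (10.7 to 20.3 against 4.15 to 9.29 FPKM in controls, and 12.4 to 14.6 against 4.15 to 7.62 in Rx-Dicer libraries), and the ranges of all other neighbors overlapped in both genotypes. Neurog2 remained first by mean in Rx-Dicer libraries at 26.9 ± 9.88 FPKM, before Tbr1 (20.6), Eomes (19.5), Nhlh1 (17.9) and Insm1 (16.5). It ranked first in 5 of 6 libraries. In the library labelled Rx-Dicer 2 Insm1 ranked first at 19.7 FPKM and Neurog2 came after Eomes and Tbr1 at 16.4 FPKM.

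**Figure D5:**
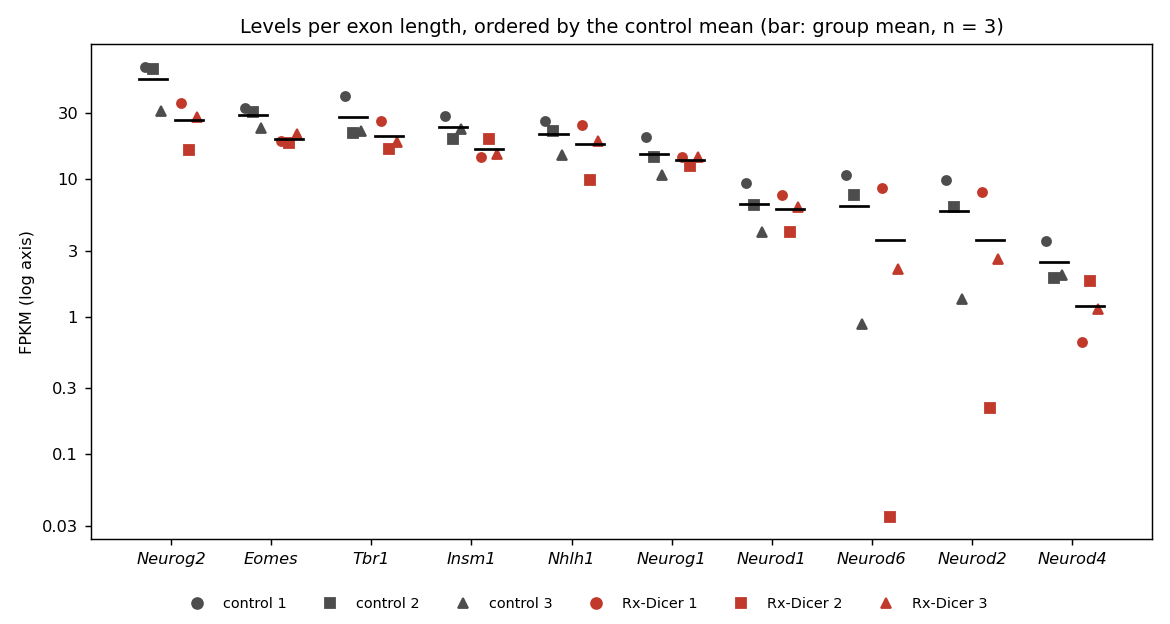
FPKM (log axis) of the 10 genes in each library, ordered by the control mean (control dark, Rx-Dicer red, bars are group means). Neurog2 has the highest mean in both genotypes, and the gap between Neurog1 and Neurod1 is the one step between neighbors at which neither genotype overlaps.

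Because Dicer makes miRNAs, the 3′ UTRs of the 10 genes were searched for the 7-base word that pairs with the seed, bases 2 to 8 of a miRNA, for 4 miRNAs of the embryonic brain. Their mature sequences (RefSeq, GRCm38.p6) are printed 5′ to 3′ with the seed in capitals, because the seed sets the word searched.
mmu-let-7a-5p: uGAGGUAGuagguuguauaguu
mmu-miR-9-5p: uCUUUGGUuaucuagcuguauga
mmu-miR-92a-3p: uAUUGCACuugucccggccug
mmu-miR-137-3p: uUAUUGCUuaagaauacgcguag

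The let-7 word CTACCTC, shared by 11 mature miRNAs with the same seed, was in 0 of the 10 genes and in 10.8% of 14053 tested protein-coding genes. The miR-9 word ACCAAAG was in 0 of the 10 and in 14.3% of these genes. The miR-92a word GTGCAAT, shared by 6 miRNAs with this seed, was in 1 of the 10 (Eomes) and in 7.76% of genes. The miR-137 word AGCAATA was in 5 of the 10 (Neurog1, Neurod1, Neurod2, Neurod4 and Tbr1) and in 10.6% of genes. Neurod4 held 4 of the 8 miR-137 words and had the longest 3′ UTR of the 10 (2259 bases, against a median of 1217 over all genes). Of the 3 called genes, Eomes and Neurod4 held a word and Insm1 held none. A match is a description of sequence, and no word says only that these letters are missing from the annotated 3′ UTR.

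The words of the called genes are shown in capitals within their surroundings on the gene's strand (GRCm38), since these are the genes that passed the test. The Eomes word lies at chr9:118485125-118485131, plus strand, and the Neurod4 words, all on the minus strand, at chr10:130270404-130270410 (at the first base of the UTR), chr10:130269516-130269522, chr10:130268450-130268456 and chr10:130268170-130268176, in that order below.
Eomes: tatcctgttttGTGCAATtctctgagaga
Neurod4 word 1: AGCAATAagataagcaccaatatttcaga
Neurod4 word 2: tcatactgtagAGCAATAaaatggtggtt
Neurod4 word 3: ttataaaacagAGCAATAatttgaataga
Neurod4 word 4: ccttttccagtAGCAATAaagctttgagt

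Neurogenins and NeuroD factors bind the E-box, and 300-base promoters (250 bases before to 50 after the start, RefSeq, GRCm38.p6) of 9 of the 10 genes were searched on both strands for the form these factors prefer, CAGATG, together with its reverse complement. A second form of the E-box, CAGCTG, is its own reverse complement, and the matches found do not overlap. CAGATG was in the promoters of Neurod2 and Nhlh1, 2 of 9 genes, and in 17.2% of 32851 promoters. CAGCTG was in that of Neurod4, 1 of 9, and in 16.3% of promoters. The words are shown in capitals, on the gene's strand, for the genes that hold them. The printed stretches lie at chr1:172057783-172057810 (Nhlh1), chr11:98329747-98329774 (Neurod2) and chr10:130280118-130280145 (Neurod4), all on the minus strand.
Nhlh1: tgcatggagaaCAGATGtccctgctccc
Neurod2: gtagagagtgaCAGATGgcggcgggtcc
Neurod4: acatagaaaacCAGCTGtggtggaggca

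Partners and regulators of the cascade were described from 14 lists with 152 genes, of which 137 were tested. In all, 8 were called higher and 5 lower. These counts were 15 and 6 without control 3 and Rx-Dicer 2, a fit in which 8 of the 13 kept their call and Hes6, Stmn3, Pax6, Lhx6 and Pomc lost it. The edgeR test called 0 of these genes, and 33 had an unadjusted p under 0.05 in either direction. Of all 17954 genes 5.84% had such a p and a lower level. The share in either direction was not computed, for this count or for the counts by list below. The edgeR adjusted p of each called gene is given beside that of DESeq2.

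A list of E proteins, ID and HES factors, which are dimer partners and inhibitors of bHLH proteins, also held Rest, which is none of these. Of its 12 genes 1 was called higher, which was Rest, and 1 lower (median log2 fold change -0.02). An unadjusted p under 0.05 was given to 2 of them by each tool. Rest, a repressor of neuronal genes in progenitors, had 3149, 2883 and 3290 normalized counts in controls, against 4184, 4070 and 4865 in Rx-Dicer libraries, all above the controls. It changed by 0.49 ± 0.13 on the log2 scale (DESeq2 adjusted p 0.00791, edgeR 0.134), and it kept its call in 5 of 6 fits that left out a library (lost without control 2). Hes6, which promotes neuronal differentiation downstream of neurogenins, had 5649, 5220 and 4842 in the control libraries and 4362, 3515 and 3919 in the Rx-Dicer libraries, without overlap. Its log2 fold change was -0.41 ± 0.13 (DESeq2 adjusted p 0.0488, edgeR 0.200), and 1 of those 6 fits, without Rx-Dicer 1, kept the call, which was also lost without control 3 and Rx-Dicer 2 together (adjusted p 0.174).

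Of 16 proneural target genes 1 was called higher and 1 lower, with a median log2 fold change of -0.22. An unadjusted p under 0.05, in either direction, was given to 7 by DESeq2 and to 6 by edgeR. All Rx-Dicer values lay below the controls for 4 of the 16 and above them for 1, against 10.7% and 8.55% of tested genes. Btg2, an antiproliferative gene of neurogenic progenitors and also a target of p53, had 4478, 3867 and 3099 normalized counts in controls, against 8365, 5083 and 7475 in Rx-Dicer libraries, all above the controls. The change was 0.87 ± 0.19 on the log2 scale (DESeq2 adjusted p 0.00115, edgeR 0.172), and it was called in all 6 fits that left out a library. Rnd2, a small GTPase that acts downstream of Neurog2 in neuronal migration, had 5912, 4967 and 3420 in the control libraries and 3702, 1983 and 2179 in the Rx-Dicer libraries. The library labelled control 3 lay below Rx-Dicer 1, so the groups overlapped. Its log2 fold change was -0.86 ± 0.24 (DESeq2 adjusted p 0.0195, edgeR 0.258), and it kept its call in 2 of 6 fits, those without control 3 and without Rx-Dicer 1.

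Of 15 early glutamatergic neuron genes, such as Slc17a6, Bcl11b and Fezf2, 0 were called in either direction (median log2 fold change -0.05), with an unadjusted p under 0.05 for 1 gene with DESeq2 and 0 with edgeR. Their summed level was 51739, 44046 and 32586 normalized counts in controls, against 48953, 34657 and 38807 in Rx-Dicer libraries, lowest within each genotype in the library labelled control 3 and the library labelled Rx-Dicer 2. Cux1, the gene of this list with the highest mean, had a log2 fold change of -0.17 ± 0.13 (DESeq2 adjusted p 0.652).

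Of 14 pan-neuronal genes 2 were called higher and 1 lower (median log2 fold change -0.16), and 5 had an unadjusted p under 0.05 with each tool. Nefl and Nefm encode neurofilament subunits. Nefl had 263, 383 and 485 normalized counts in the control libraries and 1487, 593 and 1157 in the Rx-Dicer libraries, all above the controls (log2 fold change 1.52 ± 0.29, DESeq2 adjusted p 6.64e-05, edgeR 0.172, lost without control 2). Nefm had a log2 fold change of 0.74 ± 0.20 (DESeq2 adjusted p 0.0179, edgeR 0.212, kept in 2 of 6 fits that left out a library). Stmn3, a microtubule regulator of neurons, fell by 0.61 on the log2 scale (DESeq2 adjusted p 0.00791, edgeR 0.175, kept in 3 of 6, and lost without control 3 and Rx-Dicer 2 together at an adjusted p of 0.162).

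Of 12 pallial progenitor genes 0 were called higher and 1 lower (median log2 fold change 0.02), with 1 at an unadjusted p under 0.05 by each tool. Pax6, which activates Neurog2 in pallial radial glia, had 7210, 6927 and 6726 normalized counts in controls, against 5064, 4749 and 5629 in Rx-Dicer libraries. The groups were well apart and the library labelled control 3 was close to the other controls, unlike for Emx1. The log2 fold change was -0.43 ± 0.12 (DESeq2 adjusted p 0.0127, edgeR 0.144), and the call was lost without control 2 (highest adjusted p 0.0553) and without control 3 and Rx-Dicer 2 together (adjusted p 0.116). Of 12 subpallial neurogenesis genes 3 had an unadjusted p under 0.05 with each tool, and 1 was called higher. The called gene was Lhx6, a factor of cortical interneurons, with 50, 42 and 52 normalized counts in the control libraries and 159, 188 and 90 in the Rx-Dicer libraries (log2 fold change 1.61 ± 0.34, DESeq2 adjusted p 0.00044, edgeR 0.133). Its call was kept in all 6 fits that left out 1 library and lost without control 3 and Rx-Dicer 2 together (adjusted p 0.103). Of 10 other neural bHLH genes 3 were tested and 0 called by DESeq2 or edgeR, with 1 at an unadjusted p under 0.05 by each. Olig2 had the highest mean (log2 fold change 0.84 ± 0.29, DESeq2 adjusted p 0.0841). Ptf1a, Atoh1 and Ferd3l, bHLH genes of the hindbrain and spinal cord, had at most 3, 6 and 5 raw counts in any library.

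Markers of other cells near this tissue were read beside these results, and their part in them was not tested. Of 8 Cajal-Retzius cell markers, early-born marginal zone neurons that also express Tbr1, 1 was called higher. This was Lhx1, with 589, 414 and 402 normalized counts in controls, against 1212, 620 and 965 in Rx-Dicer libraries (log2 fold change 0.996 ± 0.24, DESeq2 adjusted p 0.00393, edgeR 0.203, kept in 2 of 6 fits). Of the 8 markers, 5 had an unadjusted p under 0.05 with DESeq2 and 5 with edgeR, and 3 that were not called had all Rx-Dicer libraries below the controls. Calb2 had 2098, 1156 and 1140 normalized counts in the control libraries and 1121, 494 and 677 in the Rx-Dicer libraries (log2 fold change -0.94, DESeq2 adjusted p 0.324). The log2 fold changes of Ndnf and Cacna2d2 were -0.51 and -0.40 (DESeq2 adjusted p 0.0922 and 0.0760). The remaining markers went the other way and were not called. Their log2 fold changes were 0.84 for Lhx5 (DESeq2 adjusted p 0.0503), 0.77 for Reln, 0.59 for Trp73 and 0.07 for Ebf3. The median log2 fold change of the list was 0.33. The summed level of the 8 markers was 8689 to 12930 in controls and 8634 to 17391 in Rx-Dicer libraries. Of 10 tested markers of the olfactory placode and cranial sensory neurons, where Neurog1, Neurod1 and Nhlh1 are also expressed, 0 were called by either tool (2 at an unadjusted p under 0.05 with DESeq2, 0 with edgeR), with sums of 1665 to 3238 and 2363 to 3043. Isl1 had the highest mean (log2 fold change 0.73 ± 0.58). Of 7 eye field markers, where Neurod1 and Neurod4 are also expressed, 3 were tested and 0 called by either tool (0 at an unadjusted p under 0.05), with sums of 111 to 231 and 180 to 356. Mitf had the highest mean (log2 fold change 0.38 ± 0.27). Of 9 thalamic and hypothalamic markers 5 were tested, with sums of 3035 to 3662 and 3940 to 4160, and 3 had an unadjusted p under 0.05 with each tool. Otp was called higher (2, 4 and 8 normalized counts in controls, 69, 14 and 67 in Rx-Dicer libraries, DESeq2 adjusted p 0.000696, edgeR 0.149, kept in 4 of 6 fits) and Pomc lower (161, 168 and 192 against 97, 102 and 107, DESeq2 adjusted p 0.0357, edgeR 0.185, kept in 3 of 6 fits and lost without control 3 and Rx-Dicer 2 together at an adjusted p of 0.500), and Gbx2, Foxb1 and Olig3 had at most 18, 7 and 7 raw counts.

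Of 10 mesenchyme and vessel markers 0 were called by either tool (1 at an unadjusted p under 0.05 with each), with sums of 22539 to 44760 in controls and 33809 to 39819 in Rx-Dicer libraries, and Col1a2, the highest, had a log2 fold change of -0.06 ± 0.43. Of 7 surface ectoderm markers 0 were called by either tool (2 at an unadjusted p under 0.05 with each), with a median log2 fold change of -1.18 and sums of 542 to 3091 and 743 to 1756. Control 1, the highest control for all 10 cascade genes, was also the highest of all libraries in this sum. Epcam, the highest of these markers, had a log2 fold change of 0.22 ± 0.49. Of 10 blood and macrophage markers 4 had an unadjusted p under 0.05 with each tool, and 1 was called higher. This was Csf1r, a growth factor receptor of macrophages, with 385, 275 and 322 normalized counts in the control libraries and 938, 354 and 636 in the Rx-Dicer libraries (DESeq2 adjusted p 0.033, edgeR 0.271, kept in 1 of 6 fits), with 1 Rx-Dicer value inside the control range. C1qa, Ptprc and Tyrobp, also macrophage markers, had log2 fold changes of 1.35, 1.05 and 1.07 and were not called (DESeq2 adjusted p 0.306, 0.199 and 0.124). For these genes the library labelled Rx-Dicer 2 did not lie above the control range. The globin and erythroid genes of the list had log2 fold changes from -0.12 to 0.12. Sums of this list, mostly embryonic globins, were 421069 to 971427 and 347055 to 968442.

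The genes whose profile over the 6 libraries was most like the mean profile of the 10 genes were sought among 12886 other genes with a mean of at least 100 normalized counts, by the root mean squared difference of centered log2 values. They were Hopx (0.179), E130114P18Rik (0.185), Dmrta2os (0.206), AI849053 (0.220) and Igsf21 (0.221), against a median of 0.736 over all genes compared. The mean profile itself was 0.97, 0.53 and -0.32 in controls, against 0.24, -1.32 and -0.10 in Rx-Dicer libraries on the centered log2 scale. Hopx, an atypical homeodomain gene, had 1010, 676 and 338 normalized counts in the control libraries and 660, 154 and 410 in the Rx-Dicer libraries (log2 fold change -0.73, DESeq2 adjusted p 0.791). Like 8 of the 10 cascade genes, it was lowest within each genotype in the library labelled control 3 and the library labelled Rx-Dicer 2. Hopx was chosen for its match to a mean profile with these same minima, so this is not a separate observation. None of these 5 genes was called, with adjusted p from 0.647 to 0.844.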

How the data were processed

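RNA-seq was made from total RNA of papain-dissociated tissue with a directional kit and read as 100 bp pairs. The deposited files hold raw counts of reads on each Ensembl gene. Per the study's methods, the authors trimmed reads with Trim Galore 0.6.5, aligned them to GRCm38.p6 with HISAT2 and counted them with HTSeq 0.12.4 in union mode on the reverse strand, so reads over 2 genes of 1 strand were left out. Between 24.9 and 31.0% of reads lay in rows that name no gene and stayed out of library sizes. The 2 files of a sample (12 files, chi-square per degree of freedom 1.13 to 1.52 between them, 22.5 to 32.6 between samples of a group) were summed. The smallest detectable share was 3 counts, or 0.0620 to 0.0870 CPM, counting error only.

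DESeq2 1.42.0 (R 4.3.3) was the main test, as in the study, on all genes with genotype as the only term and Benjamini-Hochberg adjustment with independent filtering. edgeR 4.0.16 (quasi-likelihood test, at least 10 counts in 3 samples) was the first alternative. A pseudocount of 0.5 was used for log2 values. Scripts were tested on simulated data. FPKM and 3′ UTRs used GENCODE vM21 exons of the same build. Seeds of 4 miRNAs were searched (miR-124 was not), and promoters were matched by symbol for 9 of 10 members (not Insm1).

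The members, lists and tests were chosen with earlier results of these data known. Named genes were the members, Dicer1, up to 3 called genes in each direction per list (or else its gene with the highest mean), and the 5 genes most like the members. Emx1, Nkx2-1, Cerkl and the Cajal-Retzius markers other than Lhx1 were named after their values were seen. So were C1qa, Ptprc, Tyrobp and the marker genes named for low counts. Alternatives were other scalings, filters, thresholds and files, a length and GC correction, the pallial score as covariate, a replicate block, and leaving out each library. Leaving out control 3 and Rx-Dicer 2 together was added after the data were seen, and it counts among the 20 alternatives of each member. So does the threshold of adjusted p under 0.1, where members had the adjusted p of the main fit. A called member could not lose its call there. Values of some list genes are not reported here, and they stay in the counts.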

Additional observations from a re-analysis of the deposited data

How the results depend on the processing

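Called members, 3 as reported, numbered 0 with edgeR's quasi-likelihood test, 1 at a fold minimum of 2, without independent filtering, with the second file alone or with total-count scaling, and 0 to 2 with 1 library left out. Members all below the controls numbered 1 with the second file alone and 3 to 5 with 1 library left out. Smaller groups separate more readily, and the share of all genes was not taken for these settings. Of all genes, 502 as reported (202 lower), 8 (0 lower) were called with edgeR, 122 (21) at a fold minimum of 2, 322 (108) without independent filtering, and 286 to 637 (86 to 371 lower) with 1 library left out. At adjusted p under 0.1 308 were lower, and 75 were lower without control 3 and Rx-Dicer 2 together. Of list genes, 8 were called higher and 5 lower as reported. These were 0 and 0 with edgeR, 3 and 0 at a fold minimum of 2, 15 and 11 with the pallial score as covariate, 15 higher without control 3 and Rx-Dicer 2, and 4 to 12 higher and 2 to 9 lower with 1 library left out. Lower list genes numbered 8 at adjusted p under 0.1 and with the length and GC correction, 3 without independent filtering and 9 in protein-coding genes alone. Directions reversed for Neurog1 (log2 fold change 0.023) and Neurod1 (0.13) with the score as covariate, and with 1 library left out Neurog1 ranged from -0.36 to 0.10, Nhlh1 from -0.56 to 0.038 (without the library labelled Rx-Dicer 2) and Neurod1 from -0.40 to 0.16. The cause of these changes was not tested. The 4 ratios kept their direction without each library.

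Whether the replicate numbers shared by the genotypes pair the samples is not given in the labels, and the study compared mutants with control littermates. Correlations of deviations from the group mean were 0.27, -0.063 and -0.286 for numbers 1 to 3. Control 1 and Rx-Dicer 1 each had the other as best match, and this did not hold for every number. Across numbers, control 3 with Rx-Dicer 2 gave 0.345, the highest correlation of all, and control 2 with Rx-Dicer 3 gave 0.27. With 3 libraries per group these correlations cannot show whether litters were paired. With the replicate block 0 members and 314 genes (87 lower) were called, and with block and length and GC correction 1 member and 297 genes (120 lower).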
